A study of Mus musculus with 19 samples.

Results

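*Nodal*, *Gdf3*, *Bmp4*, *Tdgf1*, *Acvr1b*, *Acvr2b*, *Smad2*, *Foxh1*, *Lefty1* and *Lefty2* are genes of Nodal and TGFβ family signalling, 10 of the 41388 genes in the count table. They were picked by symbol from knowledge of the pathway, which NMD (nonsense-mediated mRNA decay, which destroys transcripts with certain features, such as a premature stop codon) is known to restrain, and also because *Nodal* was near 0 in control embryos. The level of *Nodal* is therefore given as a description with no test. Of the other 9 genes, 8 were compared between the genotypes in a fit over all genes, and *Lefty2* had too few counts to be tested.

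RNA of single whole mouse blastocysts at E3.25 was sequenced, 1 library per embryo, from 8 *Upf2*-null embryos (*Upf2*-/-) and 11 control littermates (*Upf2*+/+). All embryos came from crosses of *Upf2*-heterozygous parents, so the controls share the parental background. The heterozygous mice were made by crossing *Upf2*-floxed mice in the C57BL/6 background with mice that express Cre from the *E2a* promoter before implantation. Recombination removes exons 2 and 3 of *Upf2*, and a truncated protein without NMD activity is still made. Per the study's methods, dams were superovulated at 4 to 8 weeks of age, and early blastocysts from cultured zygotes were isolated 90 to 94 h after hCG. For some experiments blastocysts were instead flushed from the dams, and the route of the sequenced embryos is not stated. Every embryo is a separate animal, no litter or batch is given in the sources used here, and p-values measure the spread between these embryos.

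Libraries held 4068350 to 5993745 counts per *Upf2*-null embryo and 4056072 to 5854659 per control embryo. Genes detected numbered 15547 to 16906 per *Upf2*-null embryo and 14522 to 17084 per control embryo. *Upf2*-null embryo 2 and control embryo 5 had the fewest. Values are given in CPM, the counts of a gene as a part of the library total normalized between libraries. Over the whole *Upf2* gene, remaining exons included, *Upf2*-null embryos averaged 90.9 ± 21.3 CPM (SD, n = 8) and control embryos 57.8 ± 16.5 CPM (SD, n = 11), which is no check of the deletion. Markers listed for each of the 3 lineages were read in every library, though a single abundant gene can make up much of a sum. *Dab2*, chosen after its values were seen, is listed here for primitive endoderm and used by the study for trophectoderm. It averaged 657 ± 77.7 CPM in *Upf2*-null (SD, n = 8) against 652 ± 71.6 CPM in control embryos (SD, n = 11). The primitive endoderm sum therefore does not show that this lineage was present in every library. Summed trophectoderm markers were 2042 to 2746 CPM in *Upf2*-null embryos against 1536 to 2953 CPM in control embryos. Primitive endoderm markers were 925 to 1130 CPM in *Upf2*-null against 819 to 1153 CPM in control embryos, and epiblast markers 1318 to 1549 CPM in *Upf2*-null against 1437 to 2192 CPM in control embryos. Of 12 cumulus and granulosa cell markers, 3 had no count in any embryo, and the list summed to 0.578 to 12.2 CPM in *Upf2*-null against 0.257 to 4.86 CPM in control embryos. *Star*, chosen after its values were seen, had the most counts of this list in both groups. It averaged 4.14 ± 4.64 CPM in *Upf2*-null (SD, n = 8) against 0.958 ± 1.37 CPM in control embryos (SD, n = 11) (edgeR adjusted p = 0.454).

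Nodal is a secreted TGFβ family ligand that signals through activin receptors, among them the type I receptor ALK4, encoded by *Acvr1b*, and the type II receptor encoded by *Acvr2b*. It needs a co-receptor such as Cripto, encoded by *Tdgf1*. The receptors phosphorylate SMAD2, which enters the nucleus and acts on DNA together with partners such as FOXH1. *Lefty1* and *Lefty2* are target genes of this pathway whose secreted products block it, so they form a feedback loop. In the mouse embryo the pathway is known for patterning the epiblast around and after implantation.

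The inhibitor genes *Lefty1* and *Lefty2* are similar neighbours, and *Tdgf1* has a near-identical processed copy elsewhere in the genome, so the sequence decides how far their counts can be told apart. *Lefty2* (chromosome 1, 180893108 to 180899103, plus strand, GRCm38) ends 35918 bases before *Lefty1* (chromosome 1, 180935022 to 180938400, plus strand). Their coding sequences are both 1104 bases long and 91.8% identical, with a longest identical run of 140 bases. A stretch of 30 coding bases in exon 1 with 12 differences is shown because reads over it separate the genes. Capitals mark the bases that differ, at chr1:180935218-180935247 for *Lefty1* and chr1:180893292-180893321 for *Lefty2*, both on the plus strand.
Lefty1: ctcGATcaACcGccAGTcctggacaAGgcT
Lefty2: ctcAGCcaGGcCccCACcctggacaGCgcG
Over the exons of *Lefty1*, 17.9% of all 50-base windows also occur in *Lefty2*, and 11.6% of those of *Lefty2* occur in *Lefty1*. These windows are shorter than the average trimmed read that the study gives for its isoform analysis, so the shares are not shares of reads. How the authors' counting treated reads with more than 1 location is not given in the sources used here, so counts from shared windows are uncertain between *Lefty1* and *Lefty2*.

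*Tdgf1* (chromosome 9, 110939603 to 110946158, minus strand) and its pseudogene *Tdgf1-ps1* on chromosome 16 are 98.6% identical over 513 bases of coding sequence. A stretch with 3 differences is shown for the same reason, with capitals at the differing bases, from exon 6 of *Tdgf1* at chr9:110940756-110940785 on the minus strand and from chr16:3730944-3730973 on the plus strand.
Tdgf1: cGggactcCgtgtcaaacgccgtctgtgaC
Tdgf1-ps1: cAggactcTgtgtcaaacgccgtctgtgaT
Of the 50-base windows of *Tdgf1*, 12.5% also occur in the copy, and 50.9% of those of the copy occur in *Tdgf1*. Here too these are shares of windows and not of reads. The copy had 129 counts over all 19 embryos, between 0 and 19 in an embryo, which is 1.47% of the 8748 counts of *Tdgf1*.

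The 10 genes fell into 6 that had at least 1 count in every embryo and 4 that were at or near 0 in most. Per kilobase of exonic length, the mean level over the 19 embryos was 52.0 CPM for *Gdf3*, 35.8 for *Tdgf1*, 25.4 for *Foxh1* and 21.1 for *Smad2*. The receptors were lower, at 9.93 CPM per kilobase for *Acvr2b* and 1.73 for *Acvr1b*. *Lefty1* had 0.587, *Bmp4* 0.291, *Nodal* 0.146 and *Lefty2* 0.0573 CPM per kilobase. At this depth 3 counts, the upper limit that a count of 0 allows, correspond to 0.523 to 0.713 CPM in *Upf2*-null against 0.519 to 0.772 CPM in control embryos. These limits cover counting error only.

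*Nodal* (chromosome 10, 61417972 to 61425338, plus strand) was read almost entirely in a single embryo. *Upf2*-null embryo 1 had 28 counts, *Upf2*-null embryo 3 had 1 and the other 6 *Upf2*-null embryos had 0, against 1 count in control embryo 2 and 0 in the other 10 controls. In CPM, *Upf2*-null embryo 1 stood at 5.39, and the highest control at 0.257. *Nodal* passed the low-count filter only through *Upf2*-null embryo 1, and it was the only member whose count DESeq2 replaced as an outlier. Its single annotated transcript stood in the study's merged transcript models without a score from the embryos.

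*Gdf3* (chromosome 6, 122605403 to 122610087, minus strand), a TGFβ family ligand that also uses Cripto, was the most abundant ligand gene of the set per kilobase. *Gdf3* had a lowest, median and highest level of 57.4, 118 and 187 CPM in *Upf2*-null embryos, against 76.7, 129 and 190 CPM in controls. The ranges overlapped over most of their length, and 5 of 8 *Upf2*-null embryos lay under the median of the controls. *Upf2*-null embryos averaged 121 ± 39.0 CPM (SD, n = 8) and control embryos 130 ± 32.5 CPM (SD, n = 11), and the log2 fold change was −0.10 (95% interval −0.49 to 0.29, edgeR adjusted p = 0.926).

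*Bmp4* (chromosome 14, 46383520 to 46390669, minus strand), a ligand of the BMP branch, was sparse. Its 18 counts in *Upf2*-null embryos were 15 in embryo 4, 2 in embryo 6 and 1 in embryo 2. Its 40 counts in controls lay mainly in embryos 6, 10 and 8, with 14, 13 and 5. The embryos above 3 counts were thus 1 of 8 *Upf2*-null embryos and 3 of 11 controls, and the edgeR log2 fold change of −0.65 had an interval from −3.27 to 1.96 (adjusted p = 0.932).

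**Figure D1:**
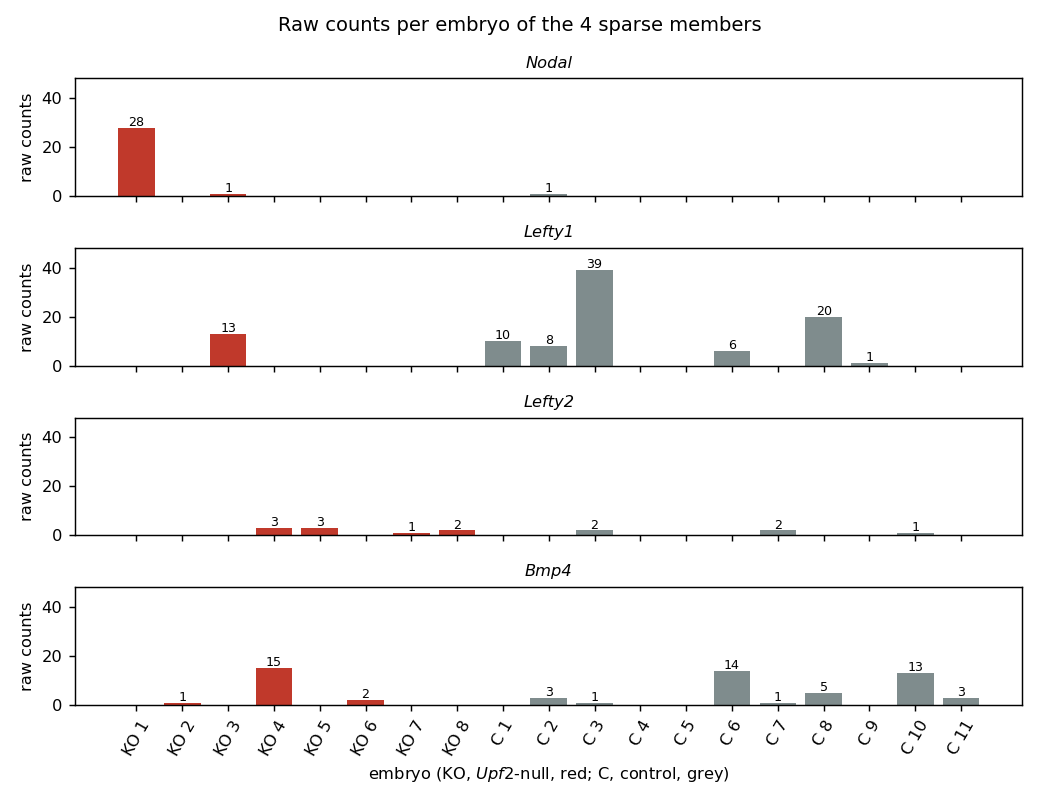
Raw counts (linear axis from 0) of *Nodal*, *Lefty1*, *Lefty2* and *Bmp4* in each of the 8 *Upf2*-null (KO, red) and 11 control (C, grey) blastocysts, with the count printed over each bar. *Nodal* stands at 28 counts in *Upf2*-null embryo 1 and at 0 or 1 elsewhere, while the *Lefty1* counts lie in *Upf2*-null embryo 3 and in control embryos 1, 2, 3, 6, 8 and 9.

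*Tdgf1*, the co-receptor gene, varied widely in both genotypes. The lowest, median and highest levels were 2.13, 87.5 and 115 CPM in *Upf2*-null against 29.96, 91.7 and 219 CPM in control embryos. *Upf2*-null embryo 2, with 12 counts, was far below every other embryo, and control embryos 2, 4 and 11 were above every *Upf2*-null embryo. *Upf2*-null embryos averaged 75.6 ± 37.4 CPM (SD, n = 8) and control embryos 107 ± 63.9 CPM (SD, n = 11), and 4 of 8 *Upf2*-null embryos lay under the median of the controls. The log2 fold change was −0.50 (95% interval −1.46 to 0.46, edgeR adjusted p = 0.791).

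*Acvr1b* (chromosome 15, 101174067 to 101213684, plus strand), the type I receptor gene, had a lowest, median and highest level of 0.435, 10.04 and 13.7 CPM in *Upf2*-null against 0.211, 5.15 and 17.2 CPM in control embryos. It lay over the median of the controls in 7 of 8 *Upf2*-null embryos, and *Upf2*-null embryo 4 was the exception with 2 counts. Controls 4, 5 and 11 were also low, with 1, 2 and 6 counts. *Upf2*-null embryos averaged 8.96 ± 3.85 CPM (SD, n = 8) and control embryos 6.67 ± 5.83 CPM (SD, n = 11), and the log2 fold change of 0.42 did not pass (95% interval −0.92 to 1.77, edgeR adjusted p = 0.903).

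*Acvr2b* (chromosome 9, 119402118 to 119434995, plus strand), a type II receptor gene, had 15.02, 45.6 and 49.0 CPM as its lowest, median and highest level in *Upf2*-null embryos, against 23.5, 40.5 and 61.1 CPM in controls. *Upf2*-null embryos 4 and 7 were the only embryos below every control. The average of 38.5 ± 12.9 CPM (SD, n = 8) in *Upf2*-null against 39.4 ± 11.95 CPM (SD, n = 11) in control embryos gave a log2 fold change of −0.034 (95% interval −0.53 to 0.47, edgeR adjusted p = 0.989).

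Of the effectors, *Smad2*, which lies on chromosome 18, was the most even member. *Smad2* had a lowest, median and highest level of 100.3, 189 and 212 CPM in *Upf2*-null against 154, 192 and 247 CPM in control embryos. Only *Upf2*-null embryo 8 lay below the control range. The log2 fold change of *Smad2* was −0.094 with the narrowest interval of the set, −0.34 to 0.15 (edgeR adjusted p = 0.872).

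*Foxh1* (chromosome 15, 76668225 to 76669948, minus strand), which encodes the DNA-binding partner of SMAD2, lay under the median of the controls in 7 of 8 *Upf2*-null embryos. The lowest, median and highest levels were 13.6, 24.9 and 52.0 CPM in *Upf2*-null against 8.23, 44.3 and 69.2 CPM in control embryos. Control embryos 2 and 5 had the lowest levels of all, so the groups overlapped. *Upf2*-null embryos averaged 27.6 ± 12.8 CPM (SD, n = 8) and control embryos 39.8 ± 19.2 CPM (SD, n = 11), and the log2 fold change was −0.53 (95% interval −1.29 to 0.23, edgeR adjusted p = 0.656).

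**Figure D2:**
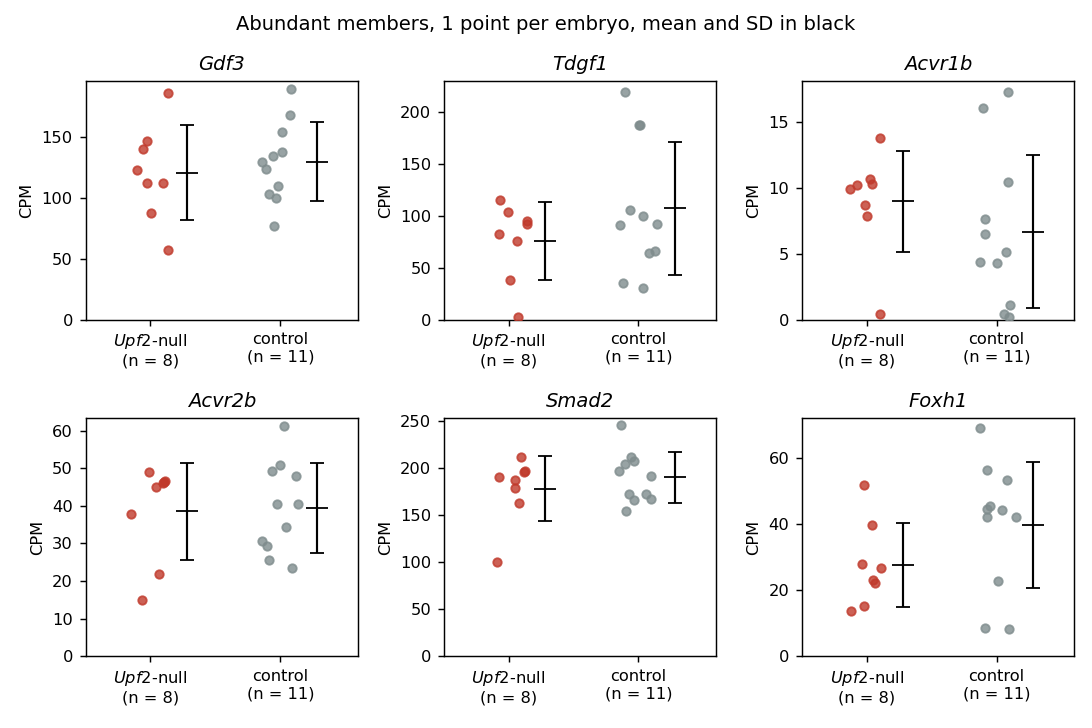
CPM (linear axes from 0, a scale for each gene) of the 6 abundant members in each *Upf2*-null (red, n = 8) and control (grey, n = 11) blastocyst, with a point per embryo and the mean and SD in black. The genotypes overlap for every gene, the mean of *Foxh1* is 27.6 CPM in *Upf2*-null against 39.8 CPM in control embryos, and *Smad2* is the most even.

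*Lefty1*, a feedback inhibitor gene, had 13 counts in *Upf2*-null embryo 3 and 0 in the other 7 *Upf2*-null embryos, against 39, 20, 10, 8, 6 and 1 counts in control embryos 3, 8, 1, 2, 6 and 9 and 0 in the other 5 controls. More than 3 counts were thus found in 1 of 8 *Upf2*-null embryos and 5 of 11 controls. The sums were 13 counts in *Upf2*-null embryos and 84 in controls. The log2 fold change of *Lefty1* was −2.34 (95% interval −5.33 to 0.64, edgeR adjusted p = 0.585), and summing both *Lefty* genes gave −1.61 (adjusted p = 0.675). *Lefty2* had at most 3 counts in any embryo, 9 in all in *Upf2*-null embryos and 5 in all in controls, and did not pass the filter on low counts. Whether the sparse genes differed could not be resolved with so few counts. No embryo had more than 3 counts of both *Nodal* and *Lefty1*, which exceeded 3 counts in 1 and 6 embryos, and 2 embryos had more than 3 counts of both *Lefty1* and *Bmp4*, of 6 and 4.

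Of the 8 members tested other than *Nodal*, edgeR called 0 at an adjusted p under 0.1, where it called 0.193% of all 17137 genes tested. DESeq2, which calls 1.03% of all genes, and limma voom, which calls 0.665%, also called 0 of the 8. Their adjusted p-values were at least 0.736 by DESeq2 and at least 0.453 by voom. At an unadjusted edgeR p under 0.05 the count was again 0 of 8, the lowest p being 0.118, against 12.5% of all genes. The log2 fold change was below 0 for 7 of the 8 and above 0 for *Acvr1b*, with a median of −0.30, where 52.3% of all genes were below 0 and their median was −0.020. The intervals show what the embryos could resolve. For *Smad2*, *Gdf3* and *Acvr2b* a doubling or a halving lay outside the 95% interval, and for *Lefty1* and *Bmp4* the interval covered far larger changes. From RNA of whole embryos, fewer cells of a type and less RNA per cell cannot be told apart. By staining blastocysts, the study counted fewer NANOG-positive cells, its epiblast marker, in *Upf2*-null embryos. Its counts of GATA6-positive, CDX2-positive and all cells did not differ significantly.

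**Figure D3:**
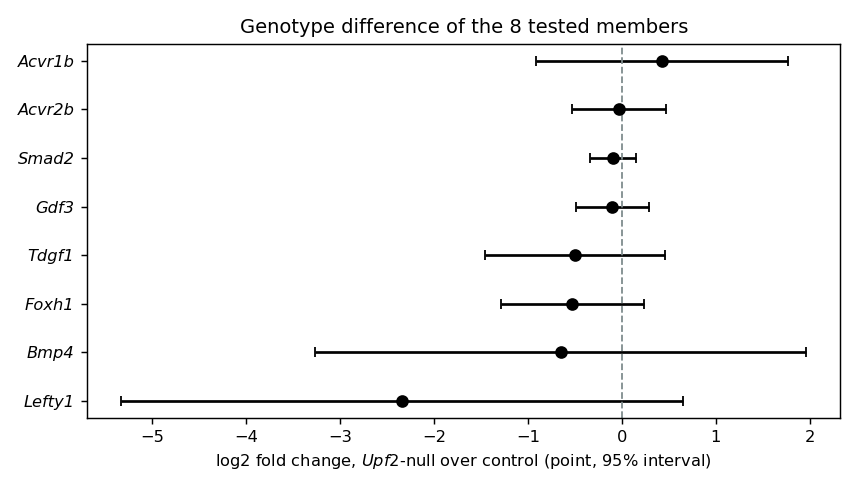
Log2 fold change of *Upf2*-null over control embryos from edgeR for the 8 members tested other than *Nodal* (points), with 95% intervals (bars) and the line of no difference (dashed). Every interval contains 0, from −0.34 to 0.15 for *Smad2* to −5.33 to 0.64 for *Lefty1*.

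The rest of the pathway was read from a list of 75 further genes, of which 74 had a row in the table and 60 were tested. The log2 fold change was above 0 for 33 of the 60, where 47.7% of all genes were, and below 0 for 27, with a median of 0.09. EdgeR called 0 of them. At an unadjusted p under 0.05 it gave 3 higher and 3 lower, against 5.15% and 7.38% of all genes. Among 12 tested ligand genes 5 were above 0 and 7 below, and among 3 convertases, which cleave the ligands, 2 above and 1 below. Among 10 receptor and co-receptor genes 7 were above and 3 below, and among 5 other *Smad* genes 2 above and 3 below. Among 21 inhibitors and regulators 12 were above and 9 below, and among 9 target genes 5 above and 4 below. DESeq2 called 1 gene as lower (0.432% of all genes were), *Ltbp3*, which encodes a protein that binds latent TGFβ. *Ltbp3* had 11 counts in *Upf2*-null embryos and 136 in controls (DESeq2 adjusted p = 0.0248, edgeR adjusted p = 0.185). The study names *Ltbp3* from these libraries, so this is not independent evidence of its direction.

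The most abundant of these genes were *Ppm1a*, a phosphatase that acts on SMAD2, *Fkbp1a*, whose product binds type I receptors, *Nedd4l*, a ubiquitin ligase, *Id2*, a target gene of BMP signalling, and *Smad4*, the common SMAD. *Ppm1a* averaged 278 ± 31.0 CPM in *Upf2*-null (SD, n = 8) against 371 ± 109 CPM in control embryos (SD, n = 11) (log2 fold change −0.41, edgeR adjusted p = 0.262). *Id2* averaged 222 ± 47.1 CPM in *Upf2*-null (SD, n = 8) against 154 ± 64.7 CPM in control embryos (SD, n = 11) (log2 fold change 0.53, edgeR adjusted p = 0.397). For *Fkbp1a* the means were 311 ± 22.1 CPM in *Upf2*-null against 308 ± 31.1 CPM in control embryos. *Nedd4l* had 185 ± 45.9 CPM in *Upf2*-null against 199 ± 34.9 CPM in control embryos, and *Smad4* had 135 ± 50.6 CPM in *Upf2*-null against 157 ± 34.1 CPM in control embryos. *Cfc1*, the gene of the other co-receptor of the Cripto family, was chosen after its values were seen. *Cfc1* averaged 11.4 ± 6.34 CPM in *Upf2*-null (SD, n = 8) against 5.81 ± 3.32 CPM in control embryos (SD, n = 11) (log2 fold change 0.97, edgeR adjusted p = 0.398). *Tgfbr3*, a TGFβ co-receptor gene, and *Tgfb2*, a ligand gene, were also chosen after their values were seen. *Tgfbr3* had 57 counts in *Upf2*-null embryos, 28 of them in a single embryo, and 1 in controls (edgeR adjusted p = 0.141). *Tgfb2* had 1 count in *Upf2*-null embryos and 49 in controls, 36 of them in a single embryo (edgeR adjusted p = 0.262).

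The blastocyst mixes 3 lineages, so 7 members with a mean of at least 1 CPM were set beside a score of each lineage, the mean standardized log2 CPM of 15 markers per embryo. This gave 21 relations over 19 embryos, of which 7 passed at a Benjamini-Hochberg adjusted permutation p under 0.1 by Pearson's r and 3 by Spearman's rho. Set against all genes with a mean of at least 5 CPM outside the list, the share with a higher r with the same score ran from 0.0283% for *Acvr2b* with trophectoderm to 9.76% for *Acvr1b* with primitive endoderm among the 7, so not all of them stand apart from other genes. CPM values within an embryo share its total, and each score rests on the same libraries as the members.

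*Acvr2b* followed the trophectoderm score. Pearson's r was 0.876 (permutation p = 1e-05, the smallest that 100000 permutations can give, adjusted p = 0.00021), and Spearman's rho was 0.832 (permutation p = 1e-05, adjusted p = 0.00021). Without control embryos 2 and 4, the farthest from the median score, r was 0.871. Within the genotypes r was 0.979 for *Upf2*-null embryos (n = 8) and 0.863 for controls (n = 11). The relation passed when any 1 of the 19 embryos was left out, and r then ran from 0.866 to 0.898. Of the 15 markers 13 had a positive r with *Acvr2b* and 8 had r over 0.5, led by the keratin genes *Krt7* (0.815) and *Krt8* (0.803) and by *Cdx2* (0.714), the transcription factor that specifies trophectoderm. Only 0.0283% of the other genes had a higher r with this score. Of the 15 epiblast markers 4 had a positive r with *Acvr2b*, and the highest, *Pou5f1*, reached 0.673. Of the 15 primitive endoderm markers 9 had a positive r and 0 had r over 0.5. The 5 embryos with the lowest trophectoderm scores were *Upf2*-null embryos 4 and 7, with 15.02 and 21.9 CPM of *Acvr2b*, and control embryos 4, 2 and 11, with 23.5, 25.5 and 30.7 CPM.

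*Tdgf1* followed the epiblast score, with r = 0.603 (permutation p = 0.0047, adjusted p = 0.0329) and rho = 0.619 (permutation p = 0.00558, adjusted p = 0.0586). Without control embryos 2 and 11, the farthest out, r was 0.512. It was 0.424 within *Upf2*-null embryos and 0.876 within controls, and 0.570 without *Upf2*-null embryo 2 and control embryo 5. Of the other genes 1.54% had a higher r than *Tdgf1* with this score. Of the 15 epiblast markers 11 had a positive r with *Tdgf1*, the highest being *Klf4* (0.786), *Spp1* (0.647) and *Fgf4* (0.577). Single markers of the other lineages were also high. Of the 15 primitive endoderm markers 9 had a positive r, led by *Lamc1* (0.744) and *Col4a1* (0.687). Of the 15 trophectoderm markers 4 did, led by *Lrp2* (0.510). With the trophectoderm score as a whole *Tdgf1* had a negative r of −0.444 (permutation p = 0.0479), which did not pass (adjusted p = 0.112). That r was −0.190 within *Upf2*-null embryos and −0.823 within controls. Without *Upf2*-null embryo 2 and control embryo 5 it was −0.700.

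*Gdf3* was related to the primitive endoderm score (r = 0.647, permutation p = 0.00356, adjusted p = 0.0329; rho = 0.577, permutation p = 0.0111, adjusted p = 0.0777) and to the epiblast score (r = 0.569, permutation p = 0.0113, adjusted p = 0.0559; rho = 0.530, permutation p = 0.0219, adjusted p = 0.115). Of the other genes 3.92% had a higher r with the primitive endoderm score and 2.56% with the epiblast score. With primitive endoderm *Gdf3* had r = 0.604 in *Upf2*-null embryos and 0.811 in controls, and it passed with any 1 of the 19 embryos left out (r from 0.576 to 0.705). Without both *Upf2*-null embryo 2 and control embryo 5, which had the fewest genes detected, r was 0.368, and 0.358 for epiblast. Its relation with epiblast was r = 0.751 without control embryos 2 and 11, and it did not pass when *Upf2*-null embryo 2 or control embryo 5 was left out (adjusted permutation p up to 0.130). Of the 15 epiblast markers 11 had a positive r with *Gdf3*, the highest again being *Klf4* (0.759). Of the 15 primitive endoderm markers 10 did, led by *Lamc1* (0.827) and *Col4a1* (0.720). Of the 15 trophectoderm markers 5 did, led by *Lrp2* (0.681).

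Of the remaining relations *Acvr1b* had r = 0.537 with primitive endoderm (permutation p = 0.0185) and r = 0.525 with trophectoderm (permutation p = 0.0186), and *Foxh1* had r = 0.546 with primitive endoderm (permutation p = 0.0154), each with an adjusted p of 0.0559. Higher values of r were found in 9.76%, 8.25% and 9.13% of the other genes for these 3 relations, in this order. Their Spearman's rho values of 0.393, 0.302 and 0.339 did not pass (permutation p = 0.0962, 0.207 and 0.158, adjusted p = 0.252, 0.290 and 0.290). For *Foxh1* r was 0.198 without *Upf2*-null embryo 2 and control embryo 5, so this relation rests on these embryos, and for *Acvr1b* with primitive endoderm it was 0.503. For *Acvr1b* with trophectoderm it was 0.415 without control embryos 2 and 4. With a single embryo left out, *Acvr1b* with primitive endoderm did not pass without control embryo 3, 4 or 5 (lowest r = 0.366), *Acvr1b* with trophectoderm did not pass without *Upf2*-null embryo 4 or control embryo 4 or 11 (lowest r = 0.382), and *Foxh1* did not pass without *Upf2*-null embryo 2 or control embryo 5 (lowest r = 0.346). Within the genotypes *Acvr1b* had r = −0.047 in *Upf2*-null embryos and 0.747 in controls with primitive endoderm. *Smad2* and *Lefty1* passed with none of the 3 scores.

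**Figure D4:**
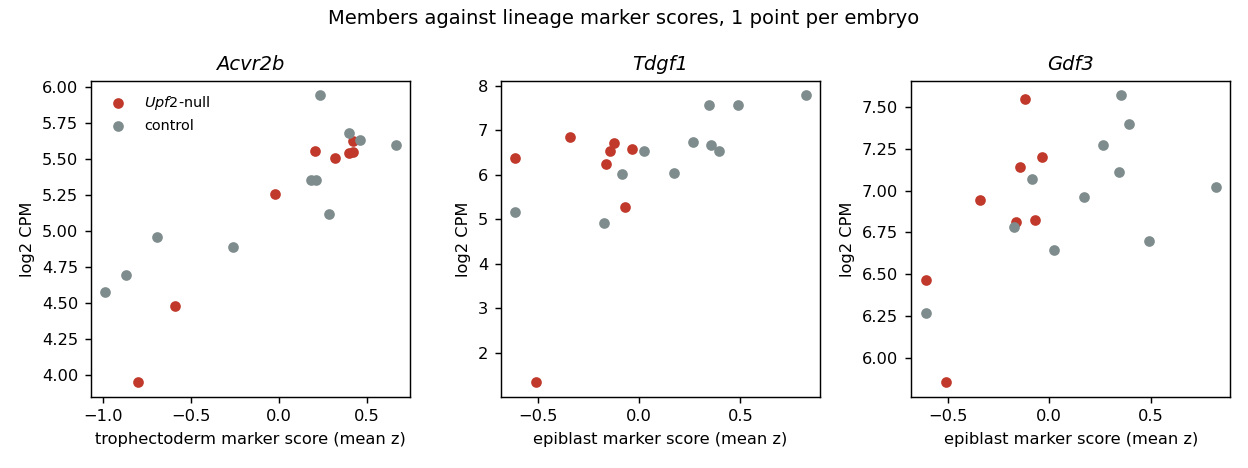
Log2 CPM of *Acvr2b* against the trophectoderm score and of *Tdgf1* and *Gdf3* against the epiblast score (mean standardized log2 CPM of the markers), with a point per *Upf2*-null (red, n = 8) or control (grey, n = 11) embryo. *Acvr2b* climbs with the score in both genotypes (r = 0.876), and *Upf2*-null embryo 2 is the lowest point for *Tdgf1* and *Gdf3*.

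Of the 15 epiblast markers tested, the log2 fold change was below 0 for 12, where 52.3% of all genes were. EdgeR called 0 of them, 4 were lower at an unadjusted p under 0.05 (7.38% of all genes), and DESeq2 called 3 lower (0.432% of all genes). *Nanog* (DESeq2 adjusted p = 0.0277) and *Fgf4* (DESeq2 adjusted p = 0.0577) were among these 3. The study reports both, and epiblast genes as a group, as lower from these libraries. These counts are therefore not independent evidence of their direction. Of 15 primitive endoderm markers 11 were above 0 and of 16 trophectoderm markers 12, against 47.7% of all genes, and edgeR called 0 in each list. At an unadjusted p under 0.05 the primitive endoderm list had 0 markers and the trophectoderm list 1, *Hand1*, named for this value (log2 fold change −2.70, edgeR adjusted p = 0.264). The part of lineage composition in the values of *Tdgf1* and *Gdf3* was not tested.

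The members differed in how much they varied from embryo to embryo. Over all 19 embryos the coefficient of variation was 66.7% for *Acvr1b*, 59.0% for *Tdgf1*, 50.6% for *Foxh1*, 30.8% for *Acvr2b*, 27.5% for *Gdf3* and 16.2% for *Smad2*, against a median of 36.5% over 10598 genes with a mean of at least 5 CPM. Of these members *Acvr1b* had the lowest mean level (7.64 CPM) and *Smad2* the highest (185 CPM). No comparison with genes of like level was made. The genes whose log2 CPM was most like that of *Acvr1b* over the 19 embryos were *Tcf19* (r = 0.829, rho = 0.607), *Stk11ip* (r = 0.818, rho = 0.754) and *Pbx2* (r = 0.802, rho = 0.612). Those most like *Tdgf1* were *Tfrc*, the transferrin receptor gene (r = 0.936, rho = 0.714), *Gja1*, which encodes connexin 43 (r = 0.927, rho = 0.660), and *Zmpste24*, a protease gene (r = 0.921, rho = 0.744). Without *Upf2*-null embryo 2 and control embryo 5 these last values of r were 0.740, 0.656 and 0.719. The genes were ranked for their likeness, so these values are a description.

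UPF2 acts on mRNAs with features that trigger NMD, among them an exon junction well after the stop codon. Of the 10 members only *Tdgf1* has an annotated transcript with a junction at least 50 bases after its stop codon, and the same gene is the only one with a transcript annotated as an NMD target. Among 14299 protein-coding genes tested the shares were 27.2% and 26.6%. In the annotated transcript with the longest coding part, the 3′ UTR was 6233 bases for *Smad2*, 2822 for *Acvr1b*, 1290 for *Lefty2* and 1101 for *Tdgf1*, and 5 of the 10 members were above the median of 757 bases over protein-coding genes. Other transcripts of a gene can carry longer 3′ UTRs. In the merged transcript models *Nodal* and *Lefty2* had only the annotated transcripts, without a score. The models without an annotated counterpart in the same assembled locus numbered 4 for *Gdf3*, 4 for *Smad2*, 2 for *Acvr2b*, 2 for *Foxh1*, 1 for *Tdgf1* and 1 for *Acvr1b*. Whether each of these models overlaps the named gene was not checked. These models hold no values per embryo, so isoform levels were not analysed here.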

How the data were processed

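Single blastocysts were each sequenced as 1 library, with cDNA from a low-input SMARTer kit and Nextera XT libraries. Reads were adapter-trimmed and mapped to GRCm38 by the authors with STAR 2.5.2a, and PCR duplicates were taken out with SAMtools. The deposited raw counts are read pairs per Ensembl gene from featureCounts. Strand is not stated for these counts. The deposited scaled table, each count times 1 factor per embryo, was not used. The merged transcript models of the authors, whose score column carries a score for assembled models, were used to count models and to see which carry a score.

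The 17137 genes that reached 10 counts in 1 or more embryos were compared between all 8 *Upf2*-null and 11 control embryos by the quasi-likelihood test of edgeR 4.0.16 (TMM, robust, without covariates), with Benjamini-Hochberg adjustment over all of them and a threshold of 0.1. The study used DESeq2 and filtered the same way. DESeq2 1.42.0 and limma 3.58.1 (voom with quality weights) were alternatives. TMM factors entered the CPM, and a prior count of 2 was set for log2 CPM. Relations used 100000 two-sided permutations. Intervals have a confidence level of 95%. Within a genotype the chi-square per gene between embryos was at least 10.5 over 83 pairs, so no library was taken as a repeat of another. Symbols, positions and transcripts came from GENCODE M21 on GRCm38, which gave no row for 1 of 145 listed symbols, *Gdf1*. The scripts were tested on simulated data.

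The members and lists were chosen with earlier results of these data known. Named genes are the 10 members, further pathway genes past the threshold by edgeR or DESeq2, the 5 most abundant of them, and the 3 genes most like each of the 2 most variable members with a mean of at least 5 CPM. Other genes are said to be chosen after their values were seen. Other normalizations, filters and thresholds, a surrogate variable (sva 3.50.0), the replicate numbers as a block and each embryo left out were alternatives, and leaving out control embryos 2 and 4, or *Upf2*-null embryo 2 and control embryo 5, was added after seeing the data. R 4.3.3 and Python 3.11.15 were used with pandas 2.3.3, numpy 2.4.6, Biopython 1.88, scipy 1.17.1 and matplotlib 3.10.9.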

Additional observations from a re-analysis of the deposited data

Results flagged for a closer look

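Single *Upf2*-null embryos stood far from the other 7 for 5 of the members, by a comparison of the gap to the nearest embryo with the range of the group. Chance alone would pass this in about 1 of 20 groups of normally distributed values. The rate for CPM values such as these was not tested. *Nodal* was 5.39 CPM in *Upf2*-null embryo 1 and at most 0.174 CPM in the others. *Lefty1* was 2.27 CPM in *Upf2*-null embryo 3 and 0 in the others, and *Bmp4* was 3.27 CPM in *Upf2*-null embryo 4 with 0.442 CPM the next. For these sparse genes most embryos tie at or near 0, so any embryo with reads stands apart. *Acvr1b* was 0.435 CPM in *Upf2*-null embryo 4, where the next lowest *Upf2*-null embryo had 7.85 CPM. *Smad2* was 100.3 CPM in *Upf2*-null embryo 8, and 163 CPM in the next lowest. Controls, a group of 11, were not screened in this way.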

How the results depend on the processing

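The count of members called, 0 of 8, was the same in all alternatives, and the lowest adjusted p of any member in any of them was 0.244, for *Lefty1* without *Upf2*-null replicate 3. With a filter of 10 counts in 5 embryos only 6 members were tested, without the 4 sparse genes. Genes called among all genes numbered 33, against 176 by DESeq2, 114 by limma voom, 17 with upper-quartile factors and 11 at a threshold of 0.05. With an embryo left out the lowest number was 14 (*Upf2*-null embryo 4 or 5) and the highest 43 (*Upf2*-null embryo 3). The further pathway genes called were 0, and 1 by DESeq2. The lineage relations past the threshold were 7, 3 by Spearman's rho, and 4 (without control embryo 5) to 9 with an embryo left out. The log2 fold change of *Acvr2b* was 0.032 over the 16 embryos numbered 1 to 8 and ran from −0.092 to 0.081 with an embryo left out, above 0 in 5 cases, and that of *Gdf3* ran from −0.22 to 0.0017, above 0 without *Upf2*-null embryo 2. That of *Bmp4* ran from −2.82 to −0.13 and that of *Lefty1* from −5.98 to −1.67. The causes of these differences between settings were not tested. Same-numbered embryos did not deviate together (correlations −0.14 to 0.07 over 8 pairs, 0 of them best with their own number), so the numbers do not pair the embryos. With the numbers as a replicate block over these 16 embryos edgeR called 0 genes (684 at an unadjusted p under 0.05), and 24 (1808) without the block. The members at an unadjusted p under 0.05 were then 1 with the block, *Lefty1* (p = 0.0143, edgeR adjusted p = 0.9997), and 0 without it. The counts of *Nodal*, *Lefty1*, *Lefty2* and *Bmp4* are low and rest on a few embryos, and why was not tested.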
